A study of Mus musculus with 8 samples.

Results

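Sarcoma cells sorted from mouse tumours were compared between the 2 tools used against the gene Mif, a short hairpin RNA (shMif, 2 libraries) and a guide RNA (sgMif, 2 libraries). The members were the 4 libraries whose titles carry these names, of 8 bulk RNA sequencing libraries in all, and they were chosen by title and not by any measured value. The cells were C57BL/6 mesenchymal stem cells that had lost p53 and overexpressed Ccne1, the gene of cyclin E1, and had already formed tumours in a first set of recipient mice. All 4 groups share that background, and each of the other 2, the non-targeting guide (sgSCR) and the control hairpin (shSCR), also held 2 libraries. The titles mark sgMif as a Mif knockout (Mif-KO), shMif as a knockdown (Mif-KD) and both control groups as Mif-WT. After transduction the cells grew under the skin of a second set of recipients on polyurethane scaffolds to about 1 cm3, and tumour cells were sorted on a fluorescent marker. One label gives Cas9 to the guide libraries, whereas the series' design text names Cas9 for both experiments, so whether the hairpin cells carried it is not settled here. Age and sex of the mice, the number of cell clones and any pooling of tumours are not given in the labels. The group names below are those of the labels, and the labels do not state whether both libraries of a group were made from different animals. The p-values therefore cover the spread between libraries as deposited, which could be technical.

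The product of Mif, macrophage migration inhibitory factor, is a cytokine that cells release, that docks on CD74 and that also signals through CD44 and the chemokine receptors CXCR2, CXCR4 and ACKR3. A hairpin is cut by Dicer and loaded on an Argonaute protein, and it lowers the messenger RNA of its target without changing the gene. A guide directs Cas9 to cut the gene itself, and repair of the break leaves small insertions or deletions that can end the protein while the messenger RNA may still be made.

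The deposited values were estimated read counts, summed here per gene. The libraries held 21825188 and 45555554 reads (sgMif 1 and 2) and 19042235 and 36676645 reads (shMif 1 and 2), and 16309 genes passed a filter on low counts. Levels are in CPM, counts-per-million units after scaling by the trimmed mean of M values. In each Mif arm the first library had more reads on olfactory receptor genes, which are genes of the nose, than the second: 1307 and 370 counts-per-million units in sgMif 1 and 2, and 2320 and 540 in shMif 1 and 2. This unevenness was thus present in both arms, and values are also given for shMif 1 against sgMif 1 and shMif 2 against sgMif 2. Mitochondrially encoded genes held 2.29 to 2.59% of reads in the 4 libraries. The summed level of 12 markers of mesenchymal sarcoma cells was 38182 and 37712 CPM in sgMif and 32162 and 40539 CPM in shMif, and none of the 12 passed the test between the arms.

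Mif RNA did not separate the arms. Mif (ENSMUSG00000033307.7, mm10 chromosome 10, 75859353 to 75860240, minus strand) stood at 221 and 222 CPM in sgMif 1 and 2 and at 277 and 222 CPM in shMif 1 and 2. The shMif values reached from the sgMif level to somewhat above it. The log2 fold change of shMif against sgMif was 0.17 ± 0.32 (SE), with an edgeR Benjamini-Hochberg adjusted p of 0.865 and a 95% interval of -0.56 to 0.91. The controls held 377 and 455 CPM in sgSCR and 170 and 375 CPM in shSCR, so Mif RNA in the libraries labelled shMif lay inside the range of their own control. Per transcript length, the arms' mean Mif levels were 728 TPM in sgMif and 803 TPM in shMif. These tables show RNA only, and the protein was not measured.

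Of Mif, its homologue and its receptors, 8 genes in all, none passed the test, beside 2.01% of all genes. Ackr3, a scavenging chemokine receptor, came nearest, with 62.7 and 69.9 CPM in sgMif and 125 and 108 CPM in shMif (log2 fold change 0.81 ± 0.18 SE, edgeR adjusted p = 0.063). Cd44 stood at 502 and 461 CPM in sgMif against 349 and 355 CPM in shMif (-0.45 ± 0.15 SE, edgeR adjusted p = 0.183). Cxcr4 was at 4.02 and 2.23 CPM in sgMif and 9.58 and 7.96 CPM in shMif (edgeR adjusted p = 0.205). Cd74, the binding receptor of Mif, stood at 20.7 and 31.7 CPM in sgMif and 77.1 and 34.02 CPM in shMif (edgeR adjusted p = 0.216), so that most of its difference came from shMif 1.

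Across the genome, 328 genes passed the test between the arms, with 192 higher in shMif (1.18% of the genes tested) and 136 higher in sgMif (0.834%). The median log2 fold change was 1.83 among those higher and -1.16 among those lower, against 0.0035 over all 16309 genes. Before adjustment, 2549 genes had p under 0.05. The number of calls rested on all 4 libraries: it was 64 without sgMif 1, 22 without sgMif 2, 19 without shMif 1 and 50 without shMif 2, and, through the shared estimate of spread, 150 and 157 without sgSCR 1 and sgSCR 2 and 526 and 496 without shSCR 1 and shSCR 2. DESeq2 called 1132 genes, among them all 328, and edgeR with counts scaled by transcript length called 91, of which 79 were among the 328. In the next counts each gene list is represented only by up to 4 members with the smallest p. Other called list members named below are not counted there. Of the 87 called genes that are among the largest differences or belong to a gene list below, 8 stayed past the threshold whichever of the 4 Mif libraries was left out (Cldn1, Penk, C2, Masp1, Dkk2, Itgb4, S1pr3 and Setbp1), 55 passed in none of these 4 fits, and 30 passed with length-scaled counts.

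The genes with the largest differences included secreted and membrane proteins in both directions, and their 4 values did not overlap between arms by the rule that chose them. Cldn1 (chromosome 16, 26356642 to 26371841), which encodes the tight junction protein claudin-1, held 0.548 and 0.293 CPM in sgMif and 13.2 and 12.3 CPM in shMif. Both shMif libraries were far above both sgMif libraries, a log2 fold change of 4.97 ± 0.42 (SE, edgeR adjusted p = 0.0036). Penk, the gene of proenkephalin, the precursor of opioid peptides, stood at 1.73 and 1.47 CPM in sgMif and 27.5 and 40.2 CPM in shMif (4.41 ± 0.37 SE, edgeR adjusted p = 0.0036). Parp12, an interferon-inducible mono-ADP-ribosyltransferase, was at 5.98 and 5.34 CPM in sgMif and at 67.9 and 62.9 CPM in shMif (3.53 ± 0.34 SE, edgeR adjusted p = 0.0055). These 3 genes were also higher in the control hairpin libraries than in the control guide libraries, which is taken up below.

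The other 9 genes at the top, all past the threshold, ran from 3.25 to 5.51 on the log2 scale. Klhl4, a kelch-family protein, was at 0.502 and 0.135 CPM in sgMif and at 12.3 and 15.02 CPM in shMif. Efemp1, the gene of the matrix protein fibulin-3, held 3.10 and 2.43 CPM in sgMif and 21.5 and 35.4 CPM in shMif (3.37 ± 0.33 SE, edgeR adjusted p = 0.0055). Npr3, the clearance receptor of natriuretic peptides, held 3.61 and 1.42 CPM in sgMif and 36.2 and 24.7 CPM in shMif. Both shMif libraries again lay above both sgMif libraries in each of them. The remaining 6 were Hdgfl3, a member of the hepatoma-derived growth factor family (log2 fold change 4.59), Cbx7, a Polycomb chromobox protein (4.35), C2, a complement component (3.79), Robo2, a receptor for Slit guidance cues (3.55), Coro2a, a coronin (3.47), and Akr1c18, a steroid-metabolising aldo-keto reductase (3.25).

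Genes lower in the hairpin arm included receptors, ion channels and developmental regulators. Setbp1, the gene of a nuclear protein that binds SET, held 13.5 and 19.9 CPM in sgMif and 1.13 and 1.25 CPM in shMif, a log2 fold change of -3.80 ± 0.31 (SE, edgeR adjusted p = 0.0036). S1pr3, a receptor for sphingosine 1-phosphate, stood at 19.5 and 28.8 CPM in sgMif and at 2.93 and 2.10 CPM in shMif (-3.27 ± 0.31 SE, edgeR adjusted p = 0.0055). Slc25a45, a mitochondrial carrier, was at 27.98 and 40.5 CPM in sgMif and at 3.66 and 4.84 CPM in shMif (-3.00 ± 0.29 SE, edgeR adjusted p = 0.0055). In all 3 both sgMif libraries exceeded both shMif libraries by several-fold. The homeobox genes Gsc (-3.22) and Dlx1 (-2.64), the calcium channel genes Cacna1b (-2.92) and Cacna1g (-2.61), and Pygo1, a cofactor of Wnt signalling (-2.84), also passed. So did Pcdhb9, a clustered protocadherin (-3.90), Insyn1, an inhibitory synapse factor (-3.03), Slco3a1, an organic anion transporter (-2.83), and Mdga1, a cell surface protein with immunoglobulin domains (-2.40). All 24 genes of the 2 directions passed under DESeq2, and 7 of them passed edgeR without shMif 1, with no reversal of direction.

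**Figure D1:**
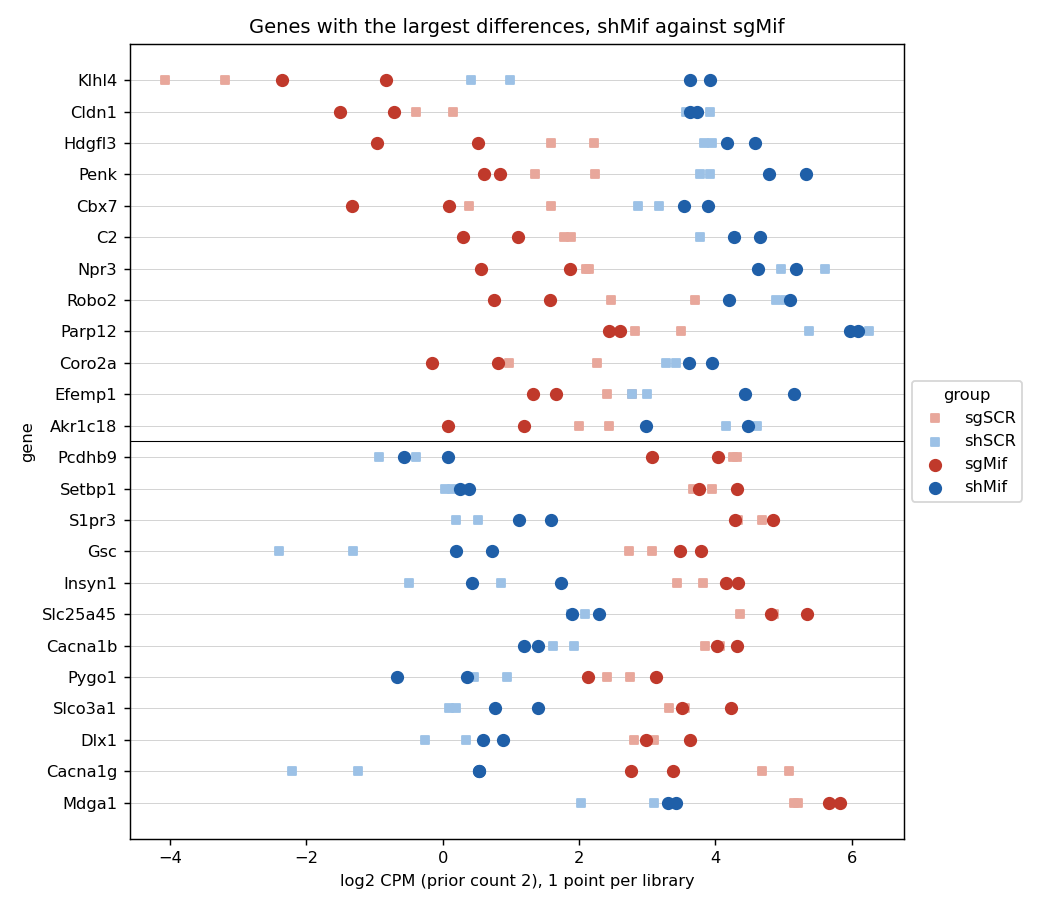
Levels of the 12 highest and 12 lowest genes, as log2 CPM with 1 point per library, in sgMif (red circles), shMif (blue circles), sgSCR (light red squares) and shSCR (light blue squares). The rule that chose the genes sets the red and blue circles apart, as for Cldn1 at 0.548 and 0.293 CPM in sgMif against 13.2 and 12.3 CPM in shMif. In all 24 genes the control difference has the same sign.

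A hairpin was also set against a guide in the control libraries, where neither tool was aimed at Mif, and this contrast shares no library with the first. There 655 genes passed, 363 higher in shSCR (2.23% of genes tested) and 292 higher in sgSCR (1.79%), and that number was 89 and 60 without sgSCR 1 and 2, 163 and 1848 without shSCR 1 and 2, and 311 and 281 without shMif 1 and 2. Of the 328 genes that separated the Mif arms, 288 (87.8%) had the same direction in the controls, beside 53.2% of all genes. Of the 328, 100 passed in the same direction in the controls, which is 30.5% of the Mif arm calls and 15.3% of the control calls. Dcn and Enpp2 passed in opposite directions. The 192 genes higher in shMif had a median log2 fold change of 0.77 between the controls, and the 136 lower genes one of -0.47. Over 11666 genes whose mean log2 CPM was at least 1, the 2 contrasts had a Pearson r of 0.254, and over all 16309 genes one of 0.0688. Genes within one set of libraries are not independent replicates.

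Among the shared genes, Cldn1 stood at 0.704 and 1.05 CPM in sgSCR and 15.1 and 11.8 CPM in shSCR, so all 4 hairpin libraries exceeded all 4 guide libraries (control log2 fold change 3.96, edgeR adjusted p = 0.0040). Setbp1 gave the reverse picture, at 12.7 and 15.4 CPM in sgSCR and 1.04 and 0.969 CPM in shSCR, and its control log2 fold change of -3.80 nearly equalled that between the Mif arms. Klhl4 was at 0 and 0.0499 CPM in sgSCR and at 1.92 and 1.27 CPM in shSCR. Its sgSCR value was 1 read in all, so the ratio there was 93.0 with a 95% counting interval of 16.4 to 3701. The genes with the largest control differences by the same rule were Cldn1, Vnn1, Npr3, Esm1 and Nxf3 in the hairpin direction, and Cd163, Cacna1g, Hs3st1, Mfap4 and Lmcd1 in the guide direction. Esm1, a proteoglycan secreted by endothelial and tumour cells, was also higher in shMif, at 257 and 274 CPM against 61.3 and 84.2 CPM in sgMif (log2 fold change 1.87 ± 0.18 SE, edgeR adjusted p = 0.0055). Hs3st1, a heparan sulfate sulfotransferase, and Mfap4, a microfibril glycoprotein, were lower in both contrasts, with log2 fold changes of -2.37 and -1.98 between the Mif arms and -5.25 and -5.20 between the controls.

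**Figure D2:**
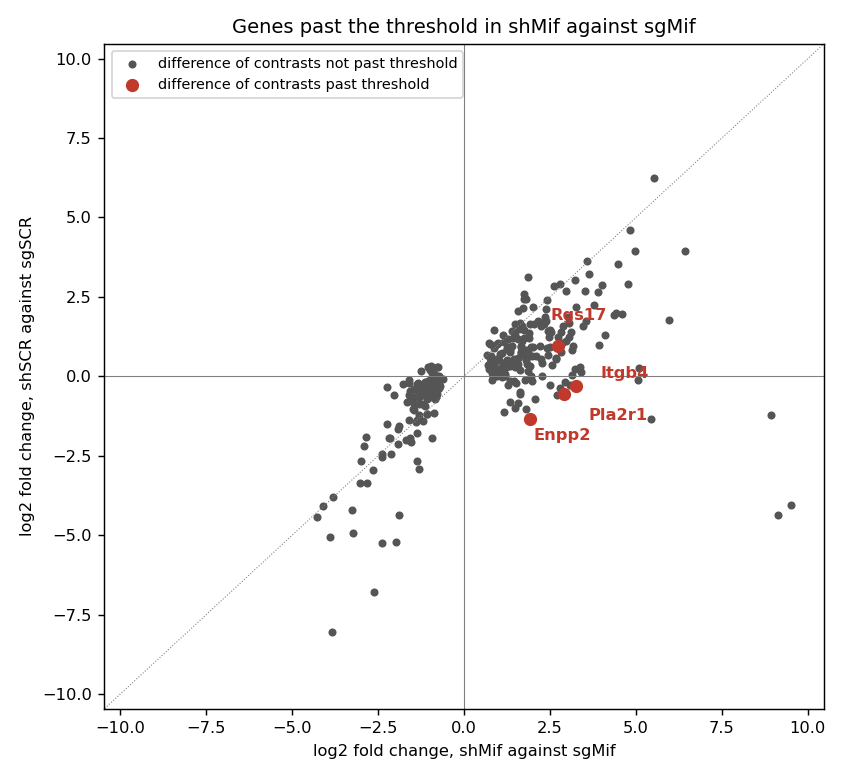
Log2 fold change of shSCR against sgSCR (vertical axis) and of shMif against sgMif (horizontal axis) for the 328 genes past the threshold between the Mif arms, with 1 point per gene and a dotted line of equality. Most points (288) lie in the quadrants of equal sign, and the 4 genes in red are those past the threshold for the difference of the 2 contrasts. Points far to the right with negative control values include Ighg1, which had 0 reads in sgMif, so that its fitted change depends on the fit.

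The difference of the 2 contrasts, which tests whether hairpin and guide libraries differed otherwise in the Mif arms than in the controls, called 15 genes (0.092%), 14 positive (0.0858%) and 1 negative (0.00613%), and 2571 at an unadjusted p under 0.05. Only 4 of the 15 were also among the 328: Itgb4, Rgs17, Pla2r1 and Enpp2. Itgb4 (chromosome 11, 115974709 to 116008412), the integrin β4 chain that pairs with α6 in hemidesmosomes, held 4.38 and 4.04 CPM in sgMif and 38.3 and 41.6 CPM in shMif. The control libraries held 6.56 and 4.74 CPM (sgSCR) and 4.05 and 5.25 CPM (shSCR), so that the 2 shMif libraries stood alone above the other 6. The log2 fold change between the Mif arms was 3.25 ± 0.25 (SE) and the difference of contrasts 3.53 ± 0.34 (SE, edgeR adjusted p = 0.0375). Pla2r1, the M-type receptor of secreted phospholipase A2, was lowest in sgMif, at 1.05 and 1.19 CPM, with 8.29 and 8.53 CPM in shMif and 7.71 to 15.1 CPM in the 4 controls. Rgs17, a regulator of G protein signalling, stood at 9.95 and 8.68 CPM in sgMif and 61.6 and 61.8 CPM in shMif, with 29.95 and 31.9 CPM in sgSCR and 64.0 and 56.8 CPM in shSCR. Enpp2 encodes autotaxin, the enzyme that makes lysophosphatidic acid, and stood at 15.9 and 23.8 CPM in sgMif and 63.1 and 87.3 CPM in shMif, in the reverse order of sgSCR (119 and 94.6 CPM) and shSCR (50.5 and 34.6 CPM). The number of genes called for the difference was 0 without sgMif 2, without shMif 1, without shMif 2 and without either sgSCR library, 6 without sgMif 1, and 527 without shSCR 2.

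In the other named genes of the difference the contrast lay between the controls. Nes, the gene of the intermediate filament nestin, was at 335 and 333 CPM in sgMif and 328 and 369 CPM in shMif, but at 183 and 164 CPM in sgSCR and 489 and 524 CPM in shSCR. Ccn5, a secreted matrix-associated protein of the CCN family, was at 22.8 and 23.6 CPM in sgMif and 18.3 and 23.8 CPM in shMif, and at 39.3 and 26.0 CPM in sgSCR and 1.82 and 1.51 CPM in shSCR. Il33 and Rarres2, the genes of interleukin-33 and chemerin, likewise did not pass between the Mif arms (edgeR adjusted p = 0.379 and 0.146).

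Genes of the cell cycle were lower in the hairpin arm. Of 28 genes of mitosis and the G2/M transition, 10 were lower in shMif and none higher, beside 0.834% of all genes lower. All 28 had lower values in both shMif libraries than in both sgMif libraries, which holds in this direction for 24.7% of all genes tested. Their median log2 fold change was -0.86, against 0.0035 over all genes and -0.17 for the same genes between the controls. Ccnb1, the gene of cyclin B1, stood at 86.7 and 91.2 CPM in sgMif and at 27.7 and 42.6 CPM in shMif (-1.34 ± 0.21 SE, edgeR adjusted p = 0.0278). Plk1, the polo-like kinase of mitotic entry, stood at 90.1 and 91.7 CPM in sgMif and 42.9 and 48.4 CPM in shMif (-0.99 ± 0.17 SE, edgeR adjusted p = 0.0322). Nusap1 (-1.23) and Tpx2 (-0.99), which bind spindle microtubules, passed as well, as did Aurka, Aurkb, Bub1, Bub1b, Knl1 and Prc1, kinases and structural proteins of the spindle and kinetochore. The proliferation marker Mki67, named after its values were seen, did not pass, at 535 and 610 CPM in sgMif and 313 and 342 CPM in shMif (edgeR adjusted p = 0.0813). Without sgMif 1, sgMif 2 or shMif 1 none of the 28 passed and without shMif 2 one did, while the median stayed between -1.06 and -0.72.

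The sgMif libraries stood apart from all others in these genes. The median member of the mitosis list lay 0.64 and 0.78 above its own mean over the 8 libraries (log2 scale) in sgMif 1 and 2. It lay at -0.36 and -0.06 in shMif, at 0.00 and -0.29 in sgSCR and at -0.32 and -0.37 in shSCR. Genes of G1/S entry and DNA replication were likewise highest in sgMif, at 0.50 and 0.48, and lay between -0.24 and -0.05 in the other 6 libraries. Their median log2 fold change between the controls was -0.02, and 0.834% of all genes were called lower in shMif. Of these 30 genes, 5 were lower in shMif and none higher, with a median log2 fold change of -0.63, and 0 passed when any one of the 4 Mif libraries was left out. Uhrf1, which maintains DNA methylation at replication, held 199 and 195 CPM in sgMif and 108 and 119 CPM in shMif (-0.80 ± 0.12 SE, edgeR adjusted p = 0.0256). Rrm2, a subunit of ribonucleotide reductase, held 111 and 111 CPM in sgMif and 50.7 and 63.1 CPM in shMif. Mcm10 and Mcm4 of the replication machinery and Pcna, the sliding clamp, made up the other 3.

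Since a guide with Cas9 cuts DNA, 20 genes of double-strand break repair and 19 targets of p53 were also counted. Both shMif values lay below both sgMif values in 13 of the 20 repair genes and above in 1, beside 24.7% and 23% of all genes. Of the repair genes, 4 were called lower in shMif, beside 0.834% of all genes, and none higher, with a median of -0.35. Among the 4 were Mre11a (52.3 and 60.0 CPM in sgMif, 28.7 and 31.4 CPM in shMif), Rif1 and Brca1. These genes are also used in replication, and their part in the difference of cell cycle genes was not tested. None of the repair genes passed without any one of the 4 Mif libraries. Of the p53 targets, none passed, beside 2.01% of all genes, with a median of -0.13. Both shMif values lay above both sgMif values in 6 of the 19 and below in 5, beside 23% and 24.7% of all genes. Cdkn1a, the gene of the cell cycle inhibitor p21, was at 43.0 and 45.5 CPM in sgMif and at 89.1 and 58.7 CPM in shMif (edgeR adjusted p = 0.109). The cells were made by loss of p53, and the part of that loss in these values was not tested.

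Of 15 genes that process or load small silencing RNAs, the machinery that hairpins use, none passed, beside 2.01% of all genes, and the median log2 fold change was -0.01. Their 4 values did not overlap between arms for 5 genes in the hairpin direction and 6 in the guide direction, beside 23% and 24.7% of all genes. Dicer1 was at 52.9 and 54.3 CPM in sgMif and 50.5 and 55.9 CPM in shMif. Ago2, the slicing Argonaute, stood at 226 and 240 CPM in sgMif and at 325 and 300 CPM in shMif (0.42 ± 0.13 SE, edgeR adjusted p = 0.147), and at 334 and 328 CPM in shSCR against 219 and 245 CPM in sgSCR.

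Genes of the type I interferon response were higher in the hairpin arm. Of 32 such genes, 6 were higher in shMif and none lower, beside 1.18% of all genes higher, and 30 had both shMif values above both sgMif values, beside 23% of all genes. All 32 had positive log2 fold changes, with a median of 1.16, and medians of 1.36 and 1.04 for the first and the second pair of libraries. Isg15, a ubiquitin-like modifier, stood at 22.05 and 18.8 CPM in sgMif and 72.2 and 57.6 CPM in shMif (1.67 ± 0.22 SE, edgeR adjusted p = 0.0169). Oas2, a sensor that makes 2'-5' oligoadenylate, stood at 6.44 and 8.05 CPM in sgMif and 36.0 and 24.97 CPM in shMif (2.07 ± 0.36 SE, edgeR adjusted p = 0.0336). Both shMif libraries exceeded both sgMif libraries in each. Ifih1 (MDA5, 1.68), Ddx58 (RIG-I, 1.09) and Dhx58 (LGP2, 1.32), the cytosolic sensors of double-stranded RNA, passed together with Rtp4 (1.49). On the separate list of 14 double-stranded RNA sensors 4 passed, the same Ifih1, Oas2, Ddx58 and Dhx58. With any one of the 4 Mif libraries left out, no gene of either list passed, while the interferon median ran from 1.09 to 1.24.

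The control hairpin libraries differed from each other in these genes. The median interferon gene lay, on the log2 scale and relative to its own mean over 8 libraries, at -0.76 and -0.56 in sgMif and at 0.58 and 0.42 in shMif. It lay at -0.18 and 0.15 in sgSCR, but at -0.32 in shSCR 1 and 0.65 in shSCR 2. The 2 control hairpin libraries thus lay on both sides of the sgSCR pair, and the median control log2 fold change was 0.17. Ifih1 was the 1 gene of the list called higher in both contrasts (control log2 fold change 1.58, edgeR adjusted p = 0.0272), and 22 of the 32 had positive control values. Ifi27l2a was called lower in shSCR than in sgSCR (-1.42, edgeR adjusted p = 0.0354) and had 0.14 between the Mif arms. No interferon gene of the list passed for the difference of contrasts, where Oas2 had the value 2.77 (edgeR adjusted p = 0.102).

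**Figure D3:**
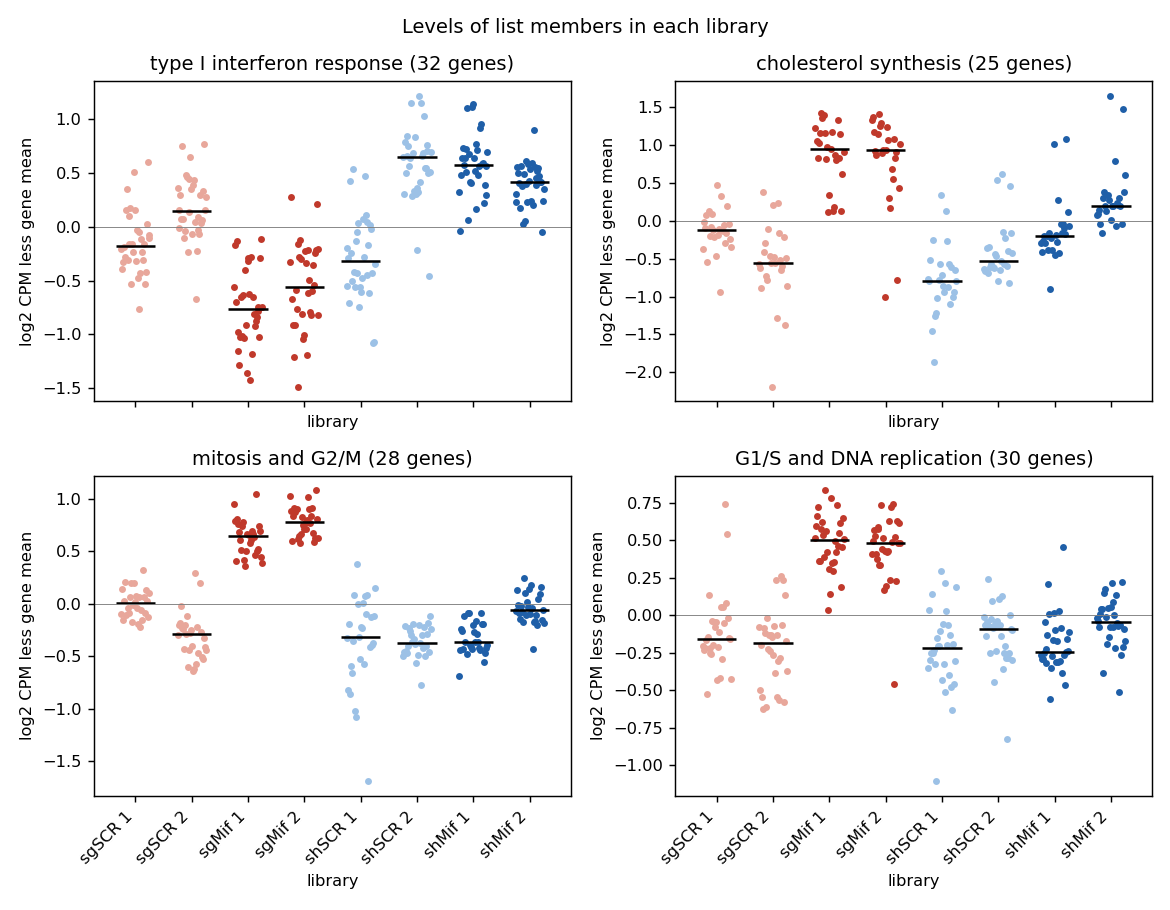
Levels of the members of 4 gene lists in each of the 8 libraries, as log2 CPM less the gene's own mean over the libraries, with 1 point per gene and a black line at the median. The sgMif libraries (red) hold the lowest interferon medians, -0.76 and -0.56, and the highest medians of cholesterol synthesis, 0.94 and 0.93, mitosis and DNA replication.

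Genes of cholesterol synthesis and uptake were lower in the hairpin arm. Of 25 measured genes 5 were lower in shMif and none higher, beside 0.834% of all genes lower, and 22 had both shMif values below both sgMif values, beside 24.7% of all genes. Their median log2 fold change was -1.05, and that between the controls -0.36. Acat2, the cytosolic acetoacetyl-CoA thiolase at the head of the pathway, held 119 and 128 CPM in sgMif and 41.4 and 53.4 CPM in shMif (-1.38 ± 0.17 SE, edgeR adjusted p = 0.0138). Pmvk, phosphomevalonate kinase, held 52.0 and 42.4 CPM in sgMif and 19.0 and 20.8 CPM in shMif (-1.24 ± 0.17 SE, edgeR adjusted p = 0.0183). The sgMif values lay above both shMif values and above all 4 controls, where Pmvk ran from 16.0 to 19.5 CPM. Insig1, which retains the sterol sensor in the endoplasmic reticulum (-1.14), Msmo1, a sterol C4-methyl oxidase (-1.08), and Hmgcs1, HMG-CoA synthase (-1.36), were the other 3. Leaving out sgMif 2 or shMif 1 left no call in the list, leaving out sgMif 1 left 1 and leaving out shMif 2 left 2. Of 15 genes of fatty acid synthesis, only Elovl6, a fatty acid elongase, passed, at 162 and 162 CPM in sgMif and 50.6 and 76.5 CPM in shMif (-1.35 ± 0.23 SE, edgeR adjusted p = 0.0322).

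Promoter windows of the members were searched for the response motif known for each pathway, and 1 called member that holds it is shown per group to let the motif be seen in its place. Windows run from 250 bases before to 50 bases after the annotated start (RefSeq, GRCm38.p6), both strands were searched, and the motif is in capitals. Isg15 (chr4:156200840-156200931, minus strand) has 3 overlapping matches to the interferon-stimulated response element, searched as GAAA, any 2 bases and GAAA, from 78 to 57 bases before the start.
Isg15: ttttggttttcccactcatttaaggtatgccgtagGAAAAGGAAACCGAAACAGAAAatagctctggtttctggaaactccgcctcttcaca
Hmgcs1 (chr13:119690179-119690257, plus strand) has 1 match to the sterol regulatory element, searched as TCACNCCAC, from 137 to 129 bases before the start.
Hmgcs1: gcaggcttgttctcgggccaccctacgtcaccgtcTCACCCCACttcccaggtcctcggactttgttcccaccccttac
Prc1 (chr7:80294411-80294475, plus strand) has 1 match to the cell cycle homology region, searched as TTTGAA, from 30 to 25 bases before the start.
Prc1: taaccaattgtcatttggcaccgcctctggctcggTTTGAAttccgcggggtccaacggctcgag

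The response element of interferon was found in 12 of 23 interferon genes with a promoter window (52.2%), and in 3.99% of all 27025 genes with one. The 3 called interferon genes with a window, Isg15, Ifih1 and Ddx58, all held it. The cell cycle motif was found in 19 of 24 mitosis genes (79.2%) and in 20.2% of all genes, among them 5 of the 8 called mitosis genes with a window. The sterol element was found in 1 of 17 genes of the cholesterol list (5.88%) and in 1.44% of all genes, and of the 5 called cholesterol genes, all with a window, only Hmgcs1 held it. A match describes the letters of the window and does not show that a factor binds there.

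Complement genes were higher in the hairpin arm, with 3 of 18 past the threshold (1.18% of all genes were called higher), none lower, all 18 of positive sign and a median log2 fold change of 1.55. The control median was -0.63. Masp1, a serine protease of the lectin pathway, stood at 93.7 and 62.6 CPM in sgMif and 614 and 496 CPM in shMif (2.83 ± 0.22 SE, edgeR adjusted p = 0.0036), and was also higher in shSCR (429 and 387 CPM) than in sgSCR (158 and 149 CPM). C2 held 2.10 and 1.17 CPM in sgMif and 19.4 and 25.2 CPM in shMif, and Cfb, complement factor B, 8.49 and 6.52 CPM in sgMif and 23.8 and 17.9 CPM in shMif. At least 2 of the 3 passed when any one of the 4 Mif libraries was left out. Of 20 genes of antigen presentation on MHC class I, Psmb8, an immunoproteasome subunit (1.35), and H2-T23 (0.87) were higher, beside the same 1.18%, with a list median of 0.66. Of 28 chemokine ligands, Cxcl16 (1.79) and Ccl6 (2.68) were higher and Cxcl12 (-1.38) lower in shMif, beside 1.18% and 0.834% of all genes. Cxcl12, the ligand of Cxcr4 and Ackr3, stood at 230 and 273 CPM in sgMif and 81.7 and 112 CPM in shMif, and at 199 and 231 CPM in sgSCR and 49.8 and 74.3 CPM in shSCR, so every guide library exceeded every hairpin library. No chemokine passed when any one of the 4 Mif libraries was left out, and of the MHC class I genes 1 passed without sgMif 2 and none without the others.

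Markers of macrophages were also higher in the hairpin arm. Of 21 macrophage markers, 3 (Laptm5, Itgam and Fcgr3) were higher in shMif, beside 1.18% of all genes. All 21 had both shMif values above both sgMif values, beside 23% of all genes, with a median log2 fold change of 1.48 (1.47 with Cd163, at 0 reads in sgMif, set to its bound). Their summed level was 213 and 172 CPM in sgMif, 677 and 354 CPM in shMif, 616 and 318 CPM in sgSCR and 391.97 and 420 CPM in shSCR. The sgMif libraries were the lowest of the 8, and no call remained in the list without sgMif 1, sgMif 2 or shMif 1. In bulk samples fewer cells of a type and less RNA per cell cannot be told apart. The part of macrophage RNA in the higher interferon, complement and chemokine values was not tested. Of 11 markers of alternatively activated macrophages 1 was higher in shMif, beside 1.18% of all genes. This was Arg1, the gene of arginase 1 (9.90 and 16.3 CPM in sgMif against 105 and 66.2 CPM in shMif, 2.70 ± 0.41 SE, edgeR adjusted p = 0.0264). The list median was 2.38, and 2.06 with Cd163 at its bound. The list summed to 13.8 and 25.5 CPM in sgMif, 139 and 86.3 CPM in shMif, 403 and 170 CPM in sgSCR and 94.4 and 67.8 CPM in shSCR. Between the controls its median was -2.34, with 4 called lower in shSCR, beside 1.79% of all genes.

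Markers of other host cells were counted in the same way. Of 11 skin fibroblast markers 4 were higher in shMif (Cd34, Ly6c1, Pi16 and Dcn) and none lower, beside 1.18% of all genes higher. Both shMif values lay above both sgMif values in 9 of the 11 and below them in 2, beside 23% and 24.7% of all genes. The median was 1.16, and it ran from 0.84 to 1.16 when 1 library was left out. Between the controls the median was -0.99, and 4 of the 11 were called lower in shSCR, beside 1.79% of all genes. The summed level of the 11 was 885 and 799 CPM in sgMif, 1379 and 1405 CPM in shMif and 1354 to 2050 CPM in the controls. The part of host cells and of the mesenchymal tumour cells in these values was not tested. The immunoglobulin heavy chain gene Ighg1 had 0 reads in both sgMif libraries and 4.27 and 1.19 CPM in shMif, at least 26.7-fold higher than 3 counts in each sgMif library. Markers of T and NK cells summed to 3.7 and 4.3 CPM in sgMif and to 20.2 and 6.2 CPM in shMif, and those of red blood cells to 1.8 and 2.2 CPM and to 51.9 and 6.5 CPM, with none past the threshold. Endothelial markers summed to 210 and 47.7 CPM in sgMif and 176 and 68.8 CPM in shMif, again with none past the threshold. Among the 4 Mif libraries, T and NK cell and red blood cell sums were thus highest in shMif 1, and the sums followed the library number rather than the tool for endothelium. Neutrophil markers summed to 21.5 and 5.2 CPM in sgMif and to 40.6 and 9.3 CPM in shMif. Of the 6 tested, 1 was called higher in shMif, Mmp8 (2.53), beside 1.18% of all genes. The neutrophil markers Camp and Ly6g and the muscle marker Myh2 had 0 reads in the 4 libraries.

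**Figure D4:**
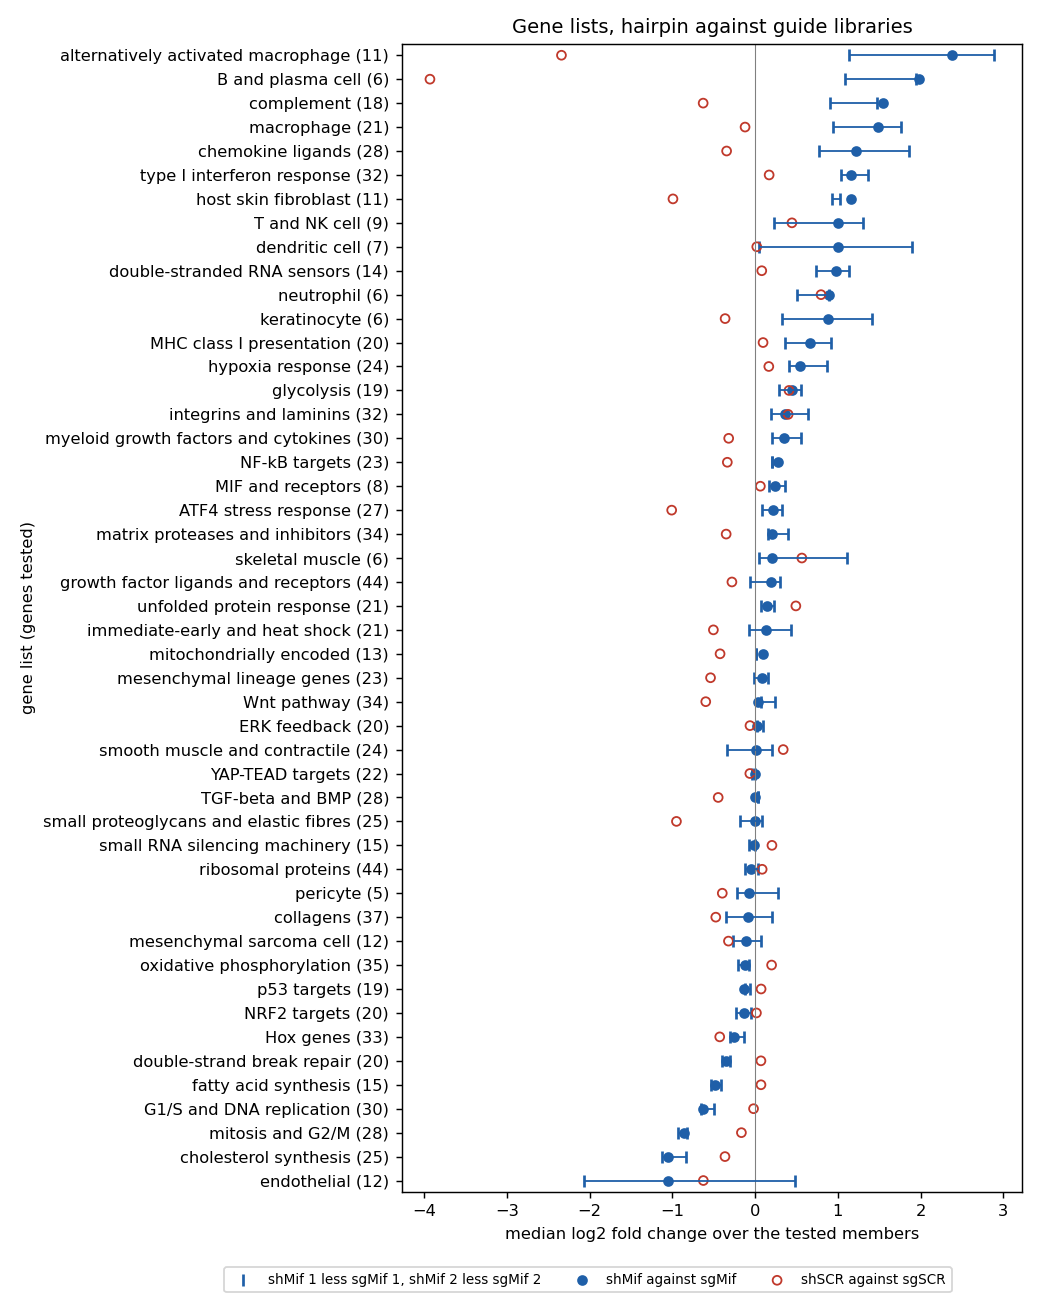
Median log2 fold change over the tested members of each gene list, for shMif against sgMif (filled blue circles), each same-numbered pair of libraries alone (blue ticks) and shSCR against sgSCR (open red circles), with the number of genes tested in brackets. Lists are ordered by the blue circles, from 2.38 for alternatively activated macrophage markers to -1.05 for endothelial markers, whose ticks at -2.06 and 0.48 lie on both sides of 0. Lists of fewer than 5 tested genes are left out.

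Among matrix and contractile genes the calls went in both directions, where 1.18% of all genes were called higher and 0.834% lower. Of 25 small proteoglycan and elastic fibre genes, Efemp1 and Dcn were higher in shMif, Fmod and Mfap4 lower, and the median was -0.006. Between the controls 11 of the 25 were called lower in shSCR and none higher, beside 1.79% of all genes lower, with a median of -0.95. Of 37 collagen genes only Col4a1 and Col4a2, the chains of basement membrane collagen that share a promoter region, passed, both lower in shMif, and the list median was -0.08. Col4a1 stood at 2163 and 2190 CPM in sgMif and 712 and 716 CPM in shMif (-1.61 ± 0.18 SE, edgeR adjusted p = 0.0108), with the controls between at 1047 to 1878 CPM. Of 32 integrins and laminins, Itgb4, Lama5 (1.95) and Nid1, the laminin and collagen linker nidogen 1 (1.03), were higher in shMif. The median of the 32 was 0.37. Between the controls it was 0.40, with 7 called higher in shSCR and 1 lower, beside 2.23% and 1.79% of all genes. Both shMif values lay above both sgMif values in 15 of the 32 and below in 6, beside 23% and 24.7% of all genes. Nid1 stood at 205 and 177 CPM in sgMif and 371 and 410 CPM in shMif, in the reverse direction of its basement membrane partner Col4a1. Acta2, smooth muscle actin, was the 1 called gene of 24 contractile genes, at 660 and 435 CPM in sgMif, 147 and 217 CPM in shMif and 85.1 to 114 CPM in the 4 controls. Ccn2 and Dlc1, from a list of 22 YAP-TEAD targets, were lower too, Ccn2 at 91.4 and 61.3 CPM in sgMif and 21.5 and 29.8 CPM in shMif.

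Among signalling genes, Bmp4 and its secreted antagonist Grem1 were both higher in shMif. Bmp4 stood at 13.3 and 9.31 CPM in sgMif and 38.7 and 37.0 CPM in shMif (1.75 ± 0.21 SE, edgeR adjusted p = 0.0117), with 7.42 and 8.72 CPM in sgSCR and 42.1 and 45.7 CPM in shSCR. All hairpin libraries exceeded all guide libraries. Dkk2, a secreted Wnt inhibitor, gave equal changes in both contrasts (2.41 between the Mif arms and 2.42 between the controls), at 53.7 and 48.1 CPM in sgMif and 289 and 252 CPM in shMif. Dkk3 (0.82), Igf2r, which clears IGF2 (1.75), Egfr (1.60), Il34, a ligand of the CSF1 receptor (1.35), and Ptges, a prostaglandin E synthase (1.09), were higher as well. Bmp4 and Grem1, Dkk2 and Dkk3, Igf2r and Egfr, and Il34 and Ptges were each the 2 calls of a list. The lists held 28 TGF-beta and BMP, 34 Wnt, 44 growth factor and 30 myeloid cytokine genes, beside 1.18% of all genes called higher. Their medians, in the same order, were -0.006, 0.04, 0.20 and 0.34. Mmp12 (2.28) and Mmp8 (2.53), proteases made by macrophages and neutrophils among other cells, were the 2 called of 34 matrix proteases and inhibitors. The median of these 34 was 0.20, and the same 1.18% of all genes were called higher.

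The metabolic and stress lists that follow held at most 2 calls each between the Mif arms, beside 1.18% of all genes called higher and 0.834% lower. Slc2a1, the glucose transporter GLUT1, stood at 364 and 397 CPM in sgMif and 977 and 925 CPM in shMif (1.32 ± 0.19 SE, edgeR adjusted p = 0.0235), and with Car12 (2.80) was 1 of 2 called of 24 hypoxia genes, whose median was 0.54. None of 19 glycolysis genes passed (median 0.44). Between the controls 3 of the 19 were called higher in shSCR and none lower, beside 2.23% of all genes higher. Their control median was 0.41, and that of the hypoxia genes 0.17. Both shMif values lay above both sgMif values in 15 hypoxia genes and 15 glycolysis genes, beside 23% of all genes. They lay below in 1 gene of each list, beside 24.7% of all genes. In the ATF4 stress response only Vldlr passed of 27 (1.33), with a median of 0.22. Between the controls, by contrast, 11 of the 27 were lower in shSCR, beside 1.79% of all genes, and the median was -1.01. None of the 33 Hox genes, 35 oxidative phosphorylation genes, 44 ribosomal protein genes or 20 NRF2 targets passed. Both shMif values lay below both sgMif values in 15, 18, 9 and 10 of them, in the same order, beside 24.7% of all genes. They lay above in 7, 0, 7 and 4, beside 23% of all genes. Of 21 genes of the unfolded protein response 1 passed, Atf6 (0.74).

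Differences were also unequal between chromosomes. Among 9454 genes whose mean log2 CPM was at least 3, the median log2 fold change of shMif against sgMif was -0.06. It was -0.34 for the 749 genes on chromosome 2, 83.8% of which had values below 0, and it was -0.34 in both same-numbered pairs. All 10 windows of 20 Mb along chromosome 2 had medians between -0.39 and -0.28. Chromosome 15 lay on the other side, with a median of 0.22 over 408 genes (0.16 and 0.25 in the 2 pairs) and all 6 windows between 0.18 and 0.27, and chromosome 4 had 0.18 over 590 genes. Between the controls the medians were -0.16 on chromosome 2, 0.25 on chromosome 15 and 0.34 on chromosome 4. Of all tested genes, 34 were called lower and 13 higher in shMif on chromosome 2 (3.53% of 1332). On chromosome 15, 19 were called higher and 0 lower (2.97% of 640). Over all chromosomes 2.01% of genes were called, 1.18% higher and 0.834% lower. Called genes on chromosome 2 included Nusap1, Tpx2, Aurka, Knl1, Bub1, Bub1b, Rif1, Mcm10 and Pcna of the lists above. On chromosome 13 the first 40 Mb had medians of -0.01 and -0.03, and the 4 windows beyond ran from -0.28 to -0.23. Copy number was not measured, and its part in these values was not tested.

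**Figure D5:**
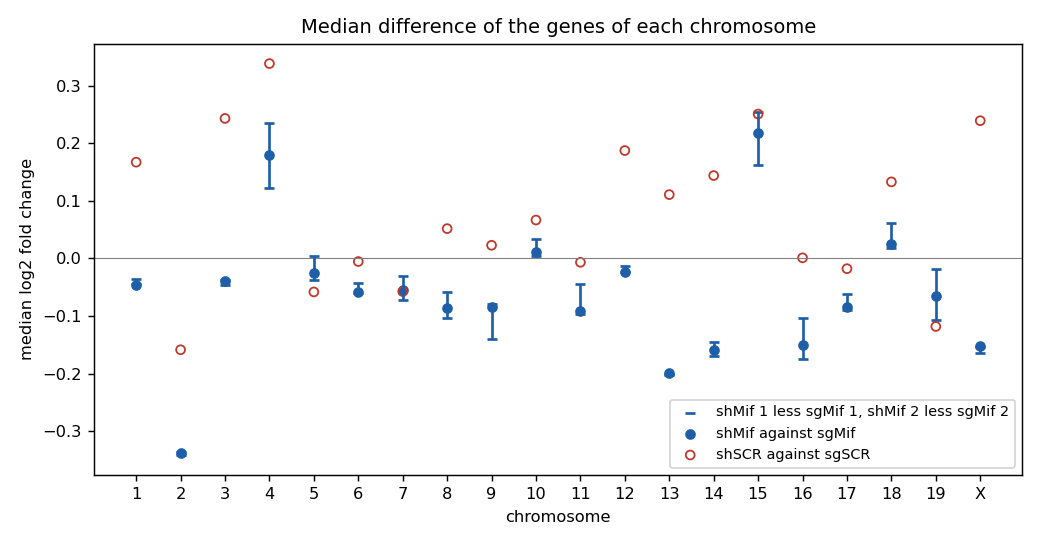
Median log2 fold change of the genes of each chromosome whose mean log2 CPM was at least 3, for shMif against sgMif (filled circles), each same-numbered pair alone (blue ticks) and shSCR against sgSCR (open red circles). Chromosome 2 has the lowest blue median, -0.34, and chromosome 15 the highest, 0.22, with the 2 pairs on the same side for both.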

How the data were processed

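Per the labels' protocols, RNA was extracted with TRIzol from sorted tumour cells, and the submitters' processing notes name Trimmomatic, Salmon and build mm10. Not given in the sources used here are versions, options, library kit and strandedness. The deposited tables hold an expected count of reads and a TPM value (transcripts-per-million units, scaled by effective length) for each of 116546 transcripts, per the file headers.

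Transcripts were joined to 35498 genes through GENCODE M21, with 569 unmatched (0.101 to 0.205% of reads). Counts were summed per gene and rounded. The 8 libraries held 19042235 to 51819308 reads, which sets the precision.

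Genes were tested with edgeR 4.0.16 (R 4.3.3): filterByExpr (minimum count 10, total 15), TMM scaling, quasi-likelihood test, 4 group means over 8 libraries with 4 residual degrees of freedom, Benjamini-Hochberg adjusted p under 0.05 over all genes. Contrasts were shMif less sgMif, shSCR less sgSCR, and their difference. The SE is the log2 fold change divided by the root of F. Plotted log2 CPM values use a prior count of 2. Folds against 0 reads are bounds against 3 counts per library, and their intervals, like the 95% interval of a ratio, cover counting error only. Fits were tested on simulated data.

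The members and the 51 gene lists (36 of pathways, 15 of markers, 1106 entries, 1 symbol unmatched) were chosen with earlier results of these data known. Named genes are Mif and its receptors, the 12 highest and 12 lowest called genes whose mean log2 CPM was 1 or more and whose 4 values did not overlap, leaving out predicted and non-coding genes, the 5 at each end for the other contrasts (for the difference over all 8 libraries and without the overlap rule), and up to 4 members with the smallest p per list. Other genes were named after their values were seen, and some genes of the lists are not reported here by name. Alternatives were other scaling, no filter, only the libraries compared, length-scaled counts, protein-coding transcripts, a replicate block, DESeq2 1.42.0, limma 3.58.1, leaving out each library, and, added after the data were seen, each same-numbered pair alone. How the authors' quantification divided reads between overlapping, antisense or closely similar genes cannot be seen in these tables.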

Additional observations from a re-analysis of the deposited data

Results flagged for a closer look

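For 14 named genes the hairpin against guide difference was another one in the Mif arms than in the controls, by the test of the difference itself (edgeR quasi-likelihood, Benjamini-Hochberg adjusted p from 0.0375 to 0.0487). The values that follow are differences of the 2 log2 fold changes, the Mif arms less the controls. Among the 4 genes that also passed between the Mif arms, the difference was 3.53 for Itgb4, 3.46 for Pla2r1, 3.25 for Enpp2 and 1.76 for Rgs17.

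The other 10 did not pass between the Mif arms. The difference was 5.04 for Rarres2, the gene of chemerin, 4.16 for Ccn5, 3.55 for Il33 and -1.48 for Nes. It was 2.64 for Cth, an enzyme of cysteine synthesis, 2.31 for Fbln5, an elastic fibre protein, and 1.91 for Lox, which cross-links collagen and elastin. Lox stood at 555 and 491 CPM in sgMif, 726 and 667 CPM in shMif, 1078 and 1233 CPM in sgSCR and 369 and 450 CPM in shSCR. Cth stood at 40.3 and 45.2 CPM in sgSCR and between 6.15 and 8.49 CPM in the other 6 libraries, so its difference came from the control guide libraries.

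Chil3, a chitinase-like protein of macrophages, had a difference of 8.35, at 13.2 and 18.9 CPM in sgSCR and 0.389 and 0.666 CPM in shSCR. Cxcl5, a neutrophil chemokine, had 7.68, and its shSCR libraries held only 0.0519 and 0.0404 CPM. Cdsn, the gene of corneodesmosin of the skin, had 9.27, and its shSCR libraries held 1 read in all against 578 in sgSCR, a ratio of 851 with a 95% counting interval of 152 to 33681. The fitted values of these last genes depend on few reads. None of the 14 would be called with length-scaled counts or with protein-coding transcripts only, where the difference of contrasts had 0 calls.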

How the results depend on the processing

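The 328 calls between the Mif arms became 1407 without a filter on low counts, 91 with length-scaled counts, 544 with the replicate block, 1132 with DESeq2, and 19 to 526 when 1 library was left out. The 655 control calls became 2425 without the filter, 133 with only the libraries compared, 312 with length-scaled counts, 994 with the replicate block, 1948 with DESeq2, and 60 to 1848 when 1 library was left out. The 15 calls for the difference became 1306 without the filter, 0 with length-scaled counts (2346 at an unadjusted p under 0.05), 0 with protein-coding transcripts only (2166 unadjusted), 68 with the replicate block, 654 with DESeq2, and 0 to 527 when 1 library was left out. Other scaling gave 331, 667 and 13, and the cause of these differences was not tested. A library left alone in its group was assumed to vary like the others.

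Same-numbered libraries of the 4 groups deviated together with correlations of 0.154 to 0.371, but with 2 numbers this does not establish a pairing. The replicate block kept all 328 calls and the 24 largest differences.

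Some list medians changed sign. The TGF-beta and BMP list had 0.0161 with other scaling, 0.0183 with only the libraries compared, 0.0582 with protein-coding transcripts, 0.0160 with DESeq2, 0.00049 with limma, 0.0412 and 0.0378 in the first and second pair alone, and -0.127 to 0.0871 when 1 library was left out. Leaving out 1 library gave medians of -0.0285 to 0.123 for ERK feedback, -0.993 to 2.43 for neutrophil markers and -0.324 to 4.22 for B and plasma cell markers. Growth factors had -0.0646 for shMif 1 against sgMif 1. Without shMif 1 the neutrophil, the B and plasma cell and the T and NK cell medians (-0.0154) were below 0. Without sgMif 1 the endothelial median was 0.39 and the pericyte median 0.91, and without shMif 2 the Wnt median was -0.0294. In all, 18 of 51 lists changed sign when 1 library was left out. Genes under about 1 CPM rest on few reads.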
